A study of Homo sapiens with 6 samples.

Results

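SNARE genes were compared in the human cell line MDA-MB-231, which is established and derives from a triple negative breast cancer, between cells transfected with a control siRNA (siControl) and cells transfected with an siRNA against USP32 (siUSP32), a deubiquitinase, each for 48 h. The 33 members, 33 of the 17646 genes listed, were taken by symbol: 12 syntaxins, 7 VAMPs and 14 further SNAREs, 30 of them with at least 1 hydrophobic segment and 3 (SNAP23, SNAP29 and YKT6) with none. Each group held 3 libraries of total RNA from the same line, and no further treatment or genotype is given in the labels. Whether the libraries were grown as independent cultures is not stated, and the p-values therefore reflect only the scatter among these libraries, which may be technical.

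SNAREs are short coiled-coil proteins that pull a vesicle and its target membrane together. A fusion complex is a bundle of 4 helices, 1 each of the Qa, Qb, Qc and R types; a Qbc protein such as SNAP23 supplies 2 of them. Most SNAREs are held in the membrane by a single hydrophobic segment at their C terminus. This tail leaves the ribosome only when translation ends, so the protein is made in the cytosol and inserted afterwards, whereas most other membrane and secreted proteins are led to the endoplasmic reticulum (ER) while they are being made.

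By sequence, 27 of the 33 members had a single hydrophobic segment ending within 30 residues of the C terminus, and in 21 the segment ended at the last residue. Segments were stretches covered by windows of 19 residues that averaged 1.6 or more on the Kyte-Doolittle scale, in proteins translated from GENCODE 29 transcripts. The exceptions with a segment were STX17, whose segment ended 35 residues before the C terminus, and SEC22A and SEC22C, with 2 and 4 segments. The last coding bases of 8 members are shown. In all but STX17 they carry the feature that sets most of these genes apart from most membrane proteins, an anchor at or near the end of the reading frame. The 8 are the 5 members with the largest rises, the most abundant member (VAMP8), and 2 that fell (STX2 and STX17). Capitals mark the codons of the hydrophobic segment, and each run ends with the stop codon.
STX5: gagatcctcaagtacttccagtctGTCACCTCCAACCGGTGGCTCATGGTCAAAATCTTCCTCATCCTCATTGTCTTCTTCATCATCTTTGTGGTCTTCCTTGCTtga
BNIP1: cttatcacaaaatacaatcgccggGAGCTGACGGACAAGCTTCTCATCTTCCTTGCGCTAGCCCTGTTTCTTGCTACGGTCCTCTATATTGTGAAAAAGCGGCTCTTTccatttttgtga
VAMP5: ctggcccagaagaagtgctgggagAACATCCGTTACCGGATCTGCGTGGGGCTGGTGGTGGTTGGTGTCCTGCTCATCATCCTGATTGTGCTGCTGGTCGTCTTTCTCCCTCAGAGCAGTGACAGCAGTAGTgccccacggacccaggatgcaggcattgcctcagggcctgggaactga
USE1: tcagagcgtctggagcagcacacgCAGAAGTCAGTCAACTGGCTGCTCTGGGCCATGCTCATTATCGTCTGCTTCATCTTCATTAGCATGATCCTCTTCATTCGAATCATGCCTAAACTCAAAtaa
STX10: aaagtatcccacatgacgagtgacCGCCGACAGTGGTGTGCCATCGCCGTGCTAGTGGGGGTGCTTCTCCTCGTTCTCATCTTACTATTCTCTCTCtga
VAMP8: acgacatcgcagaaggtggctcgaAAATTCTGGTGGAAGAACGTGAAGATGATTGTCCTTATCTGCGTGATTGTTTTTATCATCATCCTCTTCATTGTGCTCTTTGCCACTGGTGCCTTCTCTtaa
STX2: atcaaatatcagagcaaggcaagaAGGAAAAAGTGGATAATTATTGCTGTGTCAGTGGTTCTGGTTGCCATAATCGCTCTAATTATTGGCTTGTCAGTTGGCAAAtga
STX17: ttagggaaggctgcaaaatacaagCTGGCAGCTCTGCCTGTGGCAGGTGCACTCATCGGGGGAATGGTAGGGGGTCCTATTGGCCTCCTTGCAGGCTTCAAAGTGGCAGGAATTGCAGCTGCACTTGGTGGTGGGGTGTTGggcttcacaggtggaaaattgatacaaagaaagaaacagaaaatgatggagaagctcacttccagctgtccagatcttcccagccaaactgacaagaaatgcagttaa
In STX5, BNIP1, VAMP5, USE1, STX10, VAMP8 and STX17 the segment lay within the last exon, at chr11:62807472-62807552 (minus strand) for STX5, chr5:173163826-173163909 (plus) for BNIP1, chr2:85593002-85593109 (plus) for VAMP5, chr19:17219712-17219810 (plus) for USE1, chr19:13144413-13144484 (minus) for STX10, chr2:85581615-85581713 (plus) for VAMP8 and chr9:99968449-99968565 (plus) for STX17, all on GRCh38. In STX2 it was split by an intron, over exons 9 and 10 of 11 (chr12:130796043-130798527, minus strand). In STX5, VAMP8, USE1, STX10 and STX2 the capitals run to the stop codon, while BNIP1, VAMP5 and STX17 have codons beyond the segment.

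The values are FPKM, which count fragments per transcript length and library total, so levels can be compared between genes, and the read depth behind them is unknown. FPKM summed to 686376 to 694831 in the siControl and 855573 to 948641 in the siUSP32 libraries. USP32 went from 7.50, 7.48 and 8.32 to 2.0, 1.88 and 2.01 FPKM, lower in each siUSP32 library. Of the markers of the line, VIM stood at 1085 FPKM and CD44 at 425 FPKM in siControl, while ESR1 and CDH1 were at 0.5 and 0.473 FPKM, and ERBB2 and EPCAM, which are low in this line, at 12.03 and 10.5 FPKM. Differences below are siUSP32 minus siControl in log2(FPKM + 1), tested with limma over 12003 genes with a call where the p adjusted by Benjamini-Hochberg was under 0.05. Because the sums differ, each direction was also read after rescaling every library to one sum (TPM), by median ratios and by quantiles, and after a correction for transcript length. The median of all genes was -0.063 in FPKM, -0.38 with TPM, 0.057 with median-ratio scaling, 0.10 by quantiles and 0.011 by the length correction. In a bulk library a lower value in every cell and a loss from some cells cannot be told apart.

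The SNARE genes moved little and in both directions. All 33 passed the filter on low values, and 15 were higher (45.5%, against 33.3% of all genes tested), 4 were lower (12.1%, against 41.3%) and 14 did not pass the test. Calls in either direction thus covered 19 of 33, against 74.6% of all genes. Their median difference was 0.095, against -0.063 over all genes, and they ranged from -0.83 (SNAP23) to 0.85 (STX5). No member reached a difference of 1 in either direction, which 12.8% of all genes did. The groups did not overlap for 23 members, against 77.8% of all genes. With TPM 6 were higher (14.4% of all genes) and 18 lower (62.2%), with a median of -0.27, again above the -0.38 of all genes. After quantile normalization 17 were higher (43.8%) and 5 lower (30%), with median-ratio scaling 18 (40.9%) and 4 (34.7%), and with the length correction 18 (35%) and 7 (35.2%). Calls in either direction covered 73.8%, 75.6% and 70.1% of all genes on these 3 scales and 76.5% with TPM. The member median lay above that of all genes by 0.16 in FPKM, 0.11 with TPM, 0.16 with median-ratio scaling, 0.090 by quantiles and 0.16 by the length correction. Called in one direction under all of these scales were 6 members that rose (STX5, BNIP1, VAMP5, USE1, STX10 and STX8) and 2 that fell (SNAP23 and STX2).

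**Figure D1:**
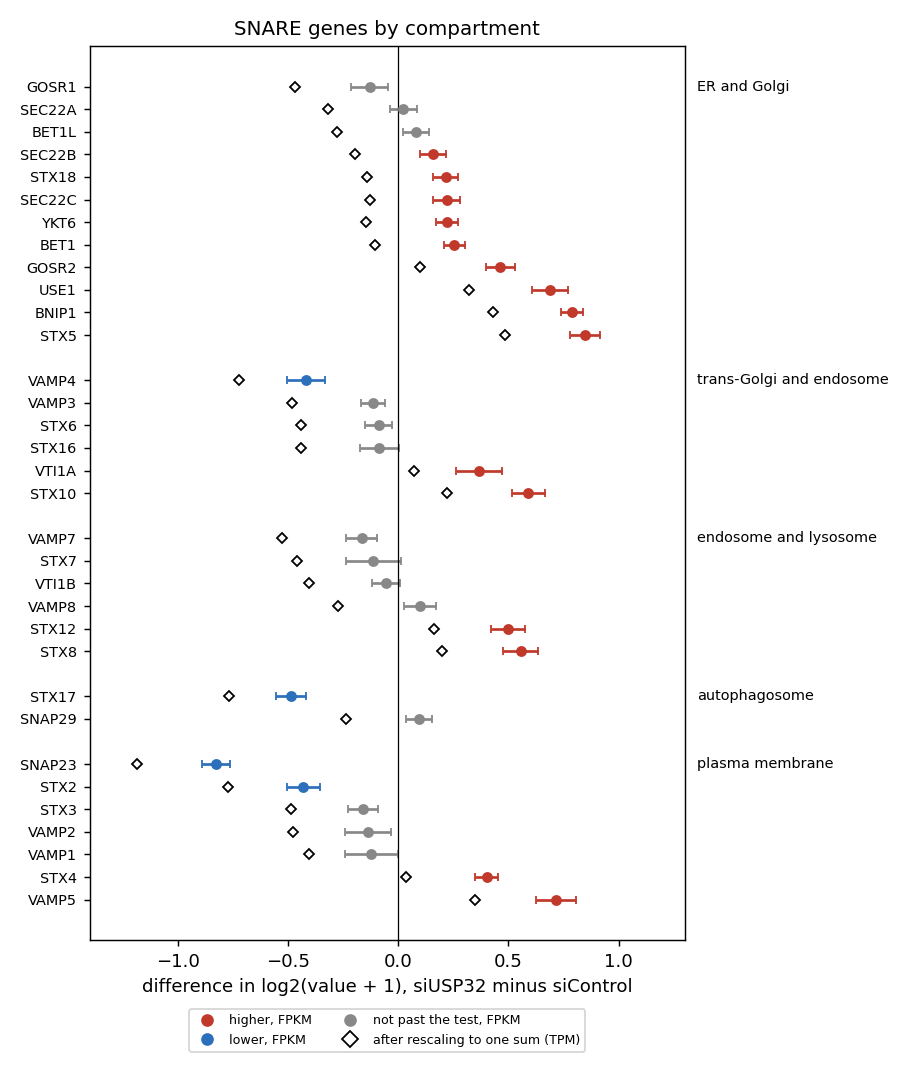
Difference in log2(value + 1) between siUSP32 and siControl for the 33 SNARE genes by compartment. Filled points with SE bars are FPKM, coloured by the limma call, and open diamonds are the same genes with TPM. STX5 lies farthest right at 0.85 and SNAP23 farthest left at -0.83, and every diamond lies to the left of its point.

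SNAREs of the ER and Golgi were the compartment with the most rises, 9 of 12 in FPKM and none lower (all genes 33.3% and 41.3%). With TPM 3 of the 12 were higher and 3 lower (25% each, against 14.4% and 62.2% of all genes). Quantile normalization gave 10 higher (all genes 43.8%, and 30% lower). The length correction gave 8 (all genes 35%, and 35.2% lower), with no member lower in either. Leaving out 1 library at a time gave 7 to 10 higher, and 1 lower without siUSP32 library 3. The same fits called 37.5% to 43.5% higher and 27.4% to 32.3% lower among the 8057 genes tested without a hydrophobic segment. STX5 (Entrez 6811, chr11:62806897-62832088, minus strand), the Qa SNARE of traffic from the ER into the Golgi and within it, was at 34.7, 33.1 and 33.8 FPKM in siControl and at 58.4, 68.7 and 58.7 FPKM in siUSP32 libraries. Each siUSP32 library lay above each siControl library, a 1.83-fold rise in the mean (difference 0.85 ± 0.07, SE, limma adjusted p = 4.65e-06). By an exact 2-sided permutation test p was 0.1, as for every member whose groups did not overlap, and 3 libraries against 3 cannot give less. The difference was 0.48 with TPM.

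BNIP1 and USE1 are the Qb and Qc SNAREs that act with STX18 in return traffic from the Golgi to the ER. BNIP1 (Entrez 662, chr5:173144442-173164387, plus strand) was at 25.1, 24.3 and 23.7 FPKM in siControl and at 41.4, 44.0 and 43.0 FPKM in siUSP32, a 1.76-fold rise (0.79 ± 0.05, limma adjusted p = 1.06e-06). USE1 (Entrez 55850, chr19:17215346-17219829, plus strand) went from 49.8, 45.7 and 45.3 FPKM to 77.0, 84.8 and 67.6 FPKM, a 1.63-fold rise (0.69 ± 0.08, limma adjusted p = 5.62e-05). Both groups of libraries stood apart for each gene. With the length correction the difference fell to 0.38 for BNIP1 and to 0.18 for USE1, with both calls kept. STX18, their Qa partner, rose by less, from 21.1 ± 0.114 to 24.7 ± 1.24 FPKM (SD, n = 3, difference 0.22, limma adjusted p = 0.00608), and was at -0.14 without a call with TPM. Within a library BNIP1 stood at 1.12 to 1.20 times STX18 in siControl and at 1.70 to 1.77 times in siUSP32, and USE1 at 2.14 to 2.37 and then 2.74 to 3.28 times STX18. A common factor for a library leaves such quotients as they are, but the length correction acts gene by gene. On that scale STX18 was at 0.11 without a call, so that little of the gap between USE1 (0.18) and STX18 was left.

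GOSR2, the Qb partner of STX5 on the way into the Golgi, was at 47.2, 41.4 and 48.4 FPKM in siControl and at 62.0, 62.1 and 65.5 FPKM in siUSP32 (0.46 ± 0.07, limma adjusted p = 1.76e-04). It rose in FPKM, by quantiles (0.34) and with the length correction (0.68), and its call was lost with TPM (0.10). In GENCODE 29, 16.2% of its transcript is shared on the same strand with another gene, so its value is uncertain. BET1, the Qc partner, went from 35.8 ± 0.971 to 42.9 ± 0.645 FPKM (0.26, limma adjusted p = 0.00103), and was at -0.11 with TPM and -0.039 with the length correction, without a call. SEC22B, the R SNARE of the same complex, was at 21.4 ± 0.0458 and 23.98 ± 1.47 FPKM (0.16, limma adjusted p = 0.0342), at -0.20 with TPM without a call, and lost its call when any 1 of 5 of the 6 libraries was left out (the exception was siUSP32 library 2). It has near-identical copies in the genome that can share its reads. In FPKM STX5 had the largest difference of the 4. On the length-corrected scale GOSR2 (0.68), STX5 (0.65) and SEC22B (0.61) lay close together. Within a library STX5 stood at 0.898 to 0.981 times BET1 in siControl and at 1.35 to 1.63 times in siUSP32, and at 1.55 to 1.62 and then 2.35 to 3.08 times SEC22B.

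YKT6, an R SNARE attached by lipid and not by a segment, was at 78.8, 78.0 and 76.5 FPKM in siControl and at 93.6, 86.7 and 92.2 FPKM in siUSP32 (0.22 ± 0.05, limma adjusted p = 0.00269). Its groups did not overlap, yet the difference was -0.15 with TPM and 0.011 after quantile normalization, without a call in either. SEC22C, an ER protein with several segments, went from 13.8 ± 0.895 to 16.3 ± 0.342 FPKM (0.22, limma adjusted p = 0.0103), and was at -0.13 with TPM and -0.12 with the length correction. Without siControl library 3 its call was lost (0.17). GOSR1 and BET1L, which act with STX5 and YKT6 inside the Golgi, and SEC22A did not pass the test, at 10.6 and 9.63, 23.1 and 24.5, and 11.7 and 11.9 FPKM in siControl and siUSP32. All 3 were lower with TPM (-0.47, -0.28 and -0.32), while GOSR1 and SEC22A were higher with the length correction (0.28 and 0.27) and BET1L with median-ratio scaling (0.21).

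At the plasma membrane the members diverged. SNAP23 (Entrez 8773), a Qbc SNARE attached by palmitoyl groups that pairs with STX4 and the VAMPs at the cell surface, was at 36.4, 35.1 and 36.3 FPKM in siControl and at 20.9, 18.1 and 20.6 FPKM in siUSP32. Every siUSP32 library lay below every siControl library, a 1.81-fold fall (-0.83 ± 0.06, limma adjusted p = 3.47e-06), with -1.19 by TPM, -0.81 by quantiles and -0.82 by the length correction. It was the lowest of the 33 members. In GENCODE 29, 51.9% of its transcript overlaps an antisense gene, and whether the counting used strand is not given in the sources used here, so reads of the pair cannot be told apart. STX2 (Entrez 2054), a Qa SNARE of the cell surface, fell from 13.1, 11.8 and 12.9 FPKM to 9.73, 8.29 and 9.29 FPKM (-0.43 ± 0.07, limma adjusted p = 6.18e-04, -0.20 after quantile normalization).

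STX4, the Qa partner of SNAP23, went the other way, from 42.1, 41.0 and 41.7 FPKM to 56.7, 57.1 and 52.0 FPKM (0.40 ± 0.05, limma adjusted p = 1.11e-04). The groups stood apart, but the call was lost with TPM (0.037) and with the length correction (0.098). VAMP5 (Entrez 10791), an R-type protein first described in muscle, was at 87.7, 86.5 and 89.2 FPKM in siControl and at 138, 170.2 and 129.8 FPKM in siUSP32, a 1.66-fold rise (0.72 ± 0.09, limma adjusted p = 7.99e-05) that was 0.18 with the length correction. STX3, a Qa SNARE of the apical surface, was at 7.99 and 7.05 FPKM, and the R SNAREs VAMP1 and VAMP2 were at 3.18 and 2.87 and at 10.3 and 9.39 FPKM. None of these 3 passed the test (limma adjusted p = 0.0611, 0.373 and 0.259), and all 3 were lower with TPM. VAMP1 was lower with the length correction too (-0.56). In siUSP32 VAMP2 was lowest in library 3 (7.64 FPKM) and VAMP1 highest in library 2 (3.68 FPKM), and each passed as lower without siUSP32 library 2 (-0.23 and -0.27).

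Quotients to SNAP23 within a library describe how far apart 3 of its partners came to lie. STX4 was at 1.16, 1.17 and 1.15 times SNAP23 in siControl and at 2.72, 3.16 and 2.53 times in siUSP32. VAMP3 went from 3.21 to 3.26 times SNAP23 to 5.20 to 5.53 times, and VAMP8 from 5.77 to 6.17 times to 10.2 to 14.2 times. SNAP23 has the lowest difference of the 33 members, so each other member divided by it must on average come out higher. The 3 quotients therefore restate its fall and are no separate evidence, and the pairs were chosen after their values were seen.

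**Figure D2:**
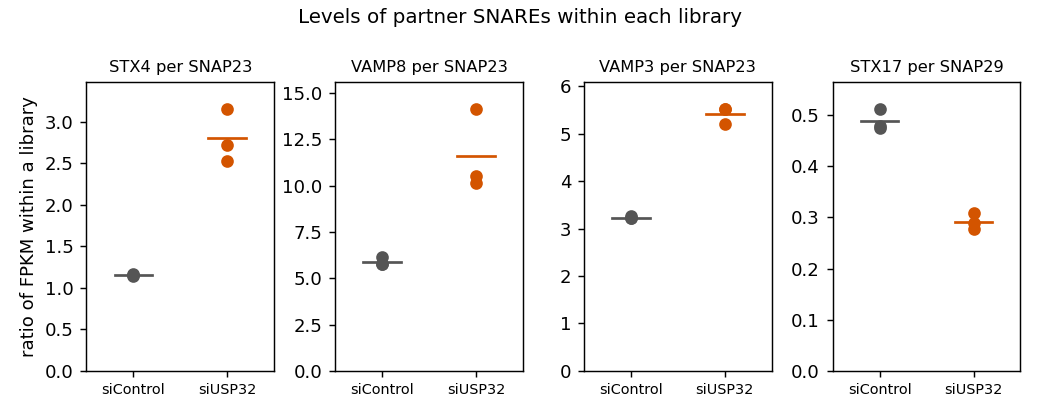
FPKM of a SNARE divided by that of a partner in the same library (y axes start at 0). Points are the 3 libraries of each group and lines their means. The 3 panels with SNAP23 as divisor show siUSP32 above siControl without overlap, and STX17 per SNAP29 shows the reverse.

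Of 6 members placed at the trans-Golgi network and recycling endosomes, 2 rose, the same share as among all genes (33.3%), 1 fell, against 41.3% of all genes, and the test was not passed by 3. STX10 (Entrez 8677, chr19:13144058-13150383, minus strand), a Qc SNARE of the route from endosomes to the trans-Golgi network, was at 81.2, 84.2 and 83.5 FPKM in siControl and at 122, 141 and 115 FPKM in siUSP32, with no overlap (0.59 ± 0.07, limma adjusted p = 7.89e-05, 0.22 with TPM and 0.17 with the length correction). VTI1A, a Qb SNARE of the same route, rose from 3.04, 3.23 and 4.26 FPKM to 4.60, 4.63 and 5.11 FPKM (0.37 ± 0.10, limma adjusted p = 0.0101), with a call lost by TPM (0.070). VAMP4, an R SNARE of this compartment, fell from 6.22, 5.28 and 5.42 FPKM to 3.87, 3.64 and 4.4 FPKM (-0.42 ± 0.09, limma adjusted p = 0.00170), and its call was lost by quantiles (-0.047) and by the length correction (-0.069). The Qa member STX16 (27.7 and 26.2 FPKM), the Qc member STX6 (19.7 and 18.5) and the R member VAMP3, at 116 ± 1.52 and 107 ± 6.96 FPKM the second most abundant SNARE gene in siControl, did not pass in FPKM. All 3 were lower with TPM (-0.44, -0.44 and -0.48), while STX16 and STX6 were higher with the length correction (0.24 and 0.23). VAMP3 was lower by quantiles (-0.35) and by the length correction (-0.21) as well.

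On endosomes and lysosomes 2 of 6 members rose, the share of all genes (33.3%), and none fell in FPKM. With TPM 1 was higher and 4 lower (16.7% and 66.7%), near the 14.4% and 62.2% of all genes. STX8 (Entrez 9482), the Qc SNARE of late endosome fusion, was at 22.9, 22.1 and 25.4 FPKM in siControl and at 32.7, 38.9 and 33.5 FPKM in siUSP32 (0.56 ± 0.08, limma adjusted p = 1.95e-04, 0.20 with TPM and 0.17 with the length correction). STX12, a Qa SNARE of early and recycling endosomes, rose from 7.76, 8.42 and 7.64 FPKM to 12.9, 11.1 and 10.9 FPKM (0.50 ± 0.08, limma adjusted p = 2.98e-04), with a call lost by TPM (0.16). Neither gene's groups overlapped. The partners of STX8 in its complex, the Qa member STX7, the Qb member VTI1B and the R member VAMP8, did not pass the test. STX7 was at 14.3, 12.3 and 14.0 FPKM and at 13.03, 9.95 and 14.8 FPKM, so that 1 siUSP32 library lay below and another above all siControl libraries. VTI1B was at 15.4 ± 0.684 and 14.8 ± 0.716 FPKM. Both were lower with TPM (-0.46 and -0.41) and higher with the length correction (0.51 and 0.31). VAMP8, the most abundant SNARE gene, was at 211, 217 and 209 FPKM and at 212, 256 and 216 FPKM (0.099, limma adjusted p = 0.241). Its direction depended on the scale, lower by TPM (-0.27), quantiles (-0.24) and the length correction (-0.42) and higher by median ratios (0.24). STX8 stood at 1.595 to 1.82 times STX7 in siControl and at 2.26 to 3.91 times in siUSP32, an order that turned with the length correction, where STX7 (0.51) lay above STX8 (0.17). STX7 was at 0.878 ± 0.0687 times VTI1B in siControl and at 0.853 ± 0.184 times in siUSP32 (exact permutation p = 0.9). VAMP7, an R SNARE of lysosome fusion, was at 37.4, 37.4 and 38.9 FPKM and at 34.2, 30.3 and 36.8 FPKM. Its groups did not overlap, but it did not pass in FPKM (-0.17, limma adjusted p = 0.0582), and it passed as lower by TPM (-0.53), by quantiles (-0.20) and by the length correction (-0.17).

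STX17, the Qa SNARE that joins finished autophagosomes to lysosomes, fell from 3.94, 3.88 and 3.99 FPKM to 2.47, 2.39 and 2.72 FPKM (-0.49 ± 0.07, limma adjusted p = 1.60e-04). All siUSP32 libraries lay below all siControl libraries, and the call was lost only after quantile normalization (-0.084) among the 15 alternatives in which the gene was tested. SNAP29, its Qbc partner, was at 8.30, 8.11 and 7.78 FPKM and at 8.56, 8.64 and 8.83 FPKM and did not pass (0.095, limma adjusted p = 0.173), and its direction too depended on the scale, lower by TPM (-0.24) and higher by median ratios (0.22), quantiles (0.38) and the length correction (0.35). STX17 was at 0.475 to 0.513 times SNAP29 in siControl and at 0.277 to 0.308 times in siUSP32, again without overlap.

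**Figure D3:**
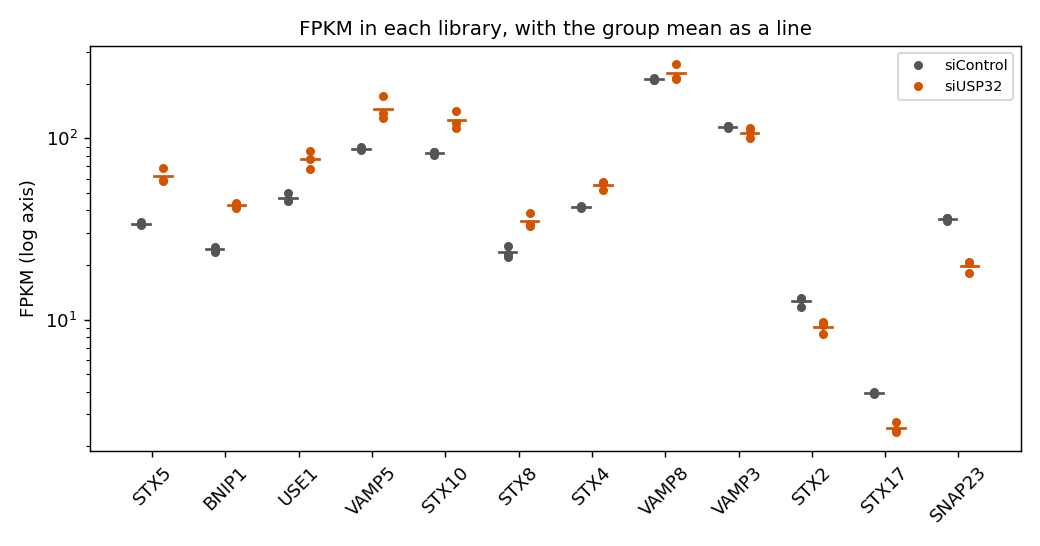
FPKM (log axis) of 12 SNARE genes in each of the 6 libraries, with the group mean as a line. STX5, BNIP1, USE1, VAMP5, STX10, STX8 and STX4 are higher in all 3 siUSP32 libraries, VAMP8 overlaps, and VAMP3, STX2, STX17 and SNAP23 are lower.

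By helix type in FPKM, against 33.3% of all genes higher and 41.3% lower, 3 of 5 Qb and 4 of 6 Qc members rose and none fell, with medians of 0.37 and 0.41. Of 9 Qa members 4 rose and 2 fell (median -0.085), of 11 R members 4 rose and 1 fell (0.023), and of the Qbc pair 1 fell. SEC22A and SEC22C, the latter a rise, were counted as R by family, though they lack the coiled-coil motif of SEC22B. With TPM (14.4% of all genes higher and 62.2% lower) 1 of 5 Qb members were higher and 2 lower, 3 of 6 Qc higher and 2 lower, 1 of 9 Qa higher and 5 lower, and 1 of 11 R higher and 7 lower. Beside SNAP23 and GOSR2, exons of another gene covered 11.6% to 29.3% of the transcripts of STX16, VAMP1, BET1L, VAMP2, VTI1B and SEC22A, none of which passed in FPKM, so their values are uncertain too. The counts by type are small, and the difference between types was not tested.

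Among the members, the difference declined with transcript length (Pearson r = -0.45, Spearman rho = -0.44, over 33 genes), as it did over 11959 genes (r = -0.45, rho = -0.52). These are correlations across genes measured in the same 6 libraries, given as a description. The 5 largest rises came from transcripts of 689 to 1794 bases (VAMP5, USE1, STX10, BNIP1 and STX5), but VAMP8 and VAMP1, with 774 and 1113 bases, did not pass. The longest member transcript, that of STX7 with 15791 bases, showed a difference of -0.11. With the length correction the relation among members turned (r = 0.37), and the transcript length the authors divided by need not be the one used here. The hydropathy of the most hydrophobic window showed no such relation (r = 0.16, rho = -0.04). GC content of the transcript did (r = 0.52), and with the length correction it did not (-0.02). The level in siControl also went with the difference (r = 0.34, rho = 0.43), and with the length correction it did not (r = -0.02).

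**Figure D4:**
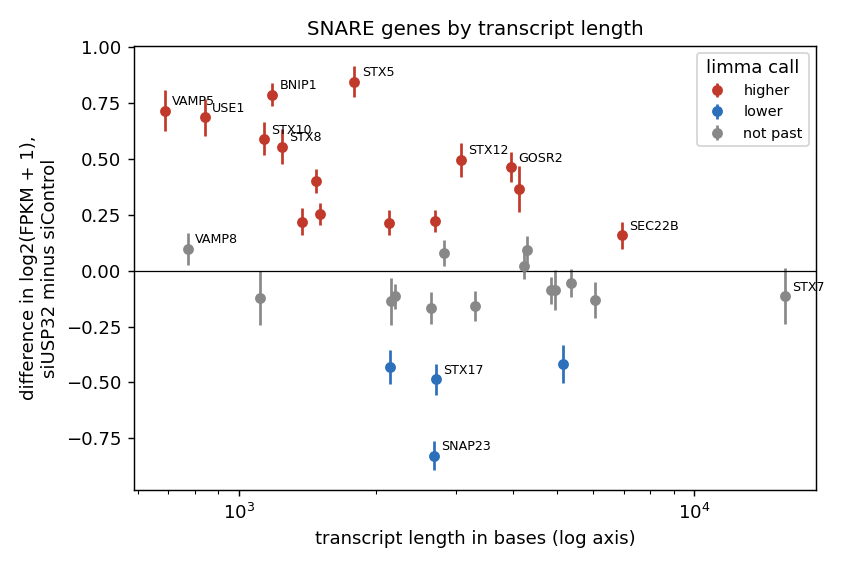
Difference in log2(FPKM + 1) against transcript length (log axis) for the 33 SNARE genes, with SE bars, coloured by the limma call. Rises of at least 0.5 lie at 689 to 1794 bases, and SNAP23 at 2687 bases is the lowest point.

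A list of 38 membrane proteins that enter the ER during translation is given as a description only. Of these genes, among them cargo receptors, lysosomal and surface proteins, 37 fell and 1 rose (41.3% and 33.3% of all genes). Their median was -1.68, and 27 lay below SNAP23, the lowest SNARE gene. The list was written with earlier results of these data known and holds genes already seen to fall, so its direction was in part fixed by the choice and supports nothing about such proteins in general. SCARB2, a lysosomal membrane protein, fell 8.29-fold, from 53.5 ± 0.647 to 6.45 ± 0.457 FPKM. The 1 riser, TMED3 of early secretory vesicles, was at 46.4 and 52.7 FPKM (0.18, limma adjusted p = 0.0119), but lower by TPM (-0.19) and by the length correction (-0.13). Over all genes, the 1664 whose first hydrophobic segment began within 40 residues of the N terminus had a median of -0.78. Of them 1211 were lower (72.8%) and 229 higher (13.8%), against 41.3% and 33.3% of all genes tested. The 8057 without a segment had a median of 0.057, with 3266 higher (40.5%) and 2500 lower (31.0%). With TPM they had 1430 higher (17.75%) and 4406 lower (54.7%), where all genes had 14.4% and 62.2%. Their median stayed above that of all genes, by 0.12 in FPKM and 0.11 with TPM. The 271 genes other than these SNAREs with a single segment at the C terminus had a median of -0.10 (0.014 by median ratios and 0.053 by quantiles), with 99 higher and 120 lower, over a wider range (-3.80 to 1.45) than the 27 SNAREs of that class (-0.43 to 0.85, 13 higher and 2 lower). With TPM (all genes 14.4% higher and 62.2% lower) the 271 had 39 higher and 165 lower and the 27 had 6 and 14. Membership of that class was set by hydropathy alone, so it also takes in proteins that are not tail anchored.

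**Figure D5:**
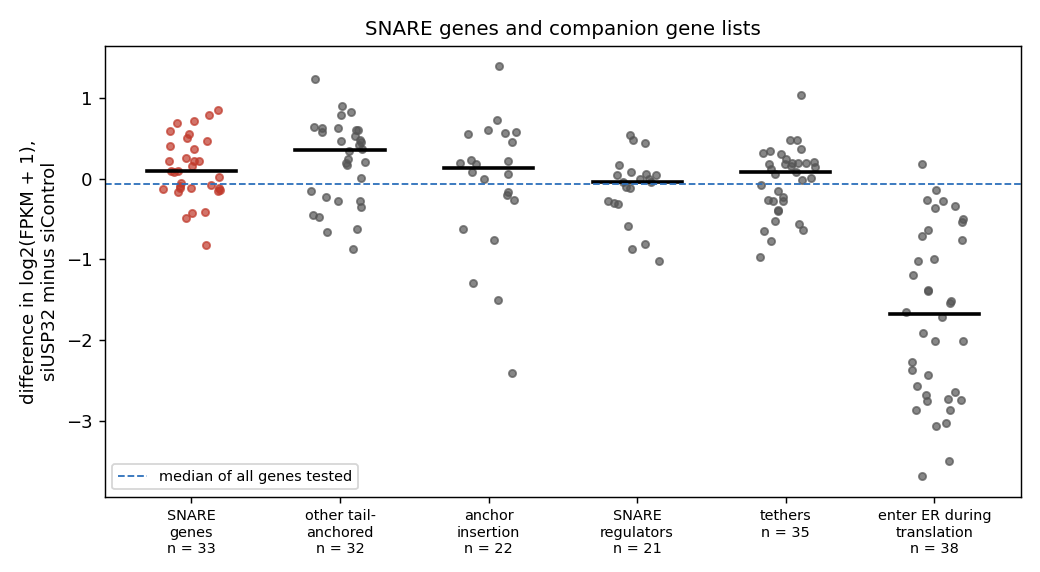
Difference in log2(FPKM + 1) of the SNARE genes and 5 companion lists, 1 point per gene tested, with the median as a black line and the median of all genes (-0.063) as a dashed line. SNARE genes lie between -0.83 and 0.85, and genes of the list at the far right reach down to -3.69 with a median of -1.68.

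A list of other tail-anchored proteins was written down from general knowledge, but with earlier results of these data known. It is therefore given as a description only. Of 32 genes tested, 21 rose and 10 fell in FPKM, where 33.3% of all genes rose and 41.3% fell. TPM gave 11 higher and 12 lower (34.4% and 37.5%, against 14.4% and 62.2% of all genes). The length correction gave 16 and 5 (50% and 15.6%, against 35% and 35.2%). The median of the list was 0.35 (all genes -0.063), and -0.0090 on the TPM scale (all genes -0.38). It lay nearer that of all genes by quantiles (0.14, all genes 0.10) and with the length correction (0.12, all genes 0.011). TOMM22, a receptor of the mitochondrial outer membrane, rose 2.48-fold, from 11.1 ± 0.867 to 27.5 ± 0.813 FPKM, and SERP1, a small ER protein, 1.57-fold, from 64.0 to 100.4 FPKM. GOLGB1, the long Golgi protein giantin, fell 2.12-fold, from 6.07 to 2.87 FPKM (-0.87, and -0.30 with the length correction, still called). MAVS, the antiviral adaptor of mitochondria, fell 1.63-fold, from 11.3 to 6.96 FPKM, a call lost with the length correction (-0.047). Of the 4 SNARE genes outside the member list that passed the filter, 3 rose and 1 fell (all genes 33.3% and 41.3%). STX1A (17.2 and 23.5 FPKM), STX11 (2.17 and 3.15) and SNAP47 (26.2 and 31.0) rose and SNAP25 (1.96 and 1.37) fell. STX11 and SNAP25 were at low levels. With TPM the 3 rises were lost, with SNAP47 at -0.13, and after quantile normalization the fall of SNAP25 was lost (0.034).

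A list of genes for tail anchor insertion divided, with 11 of 22 genes higher and 8 lower in FPKM (all genes 33.3% and 41.3%). Their median was 0.13. SND1 (0.56, higher) is in this list by symbol only, as the human gene of that name encodes a nuclease-domain protein outside this route. The counts and medians of the list include it. TPM gave 6 higher and 14 lower (27.3% and 63.6%, against 14.4% and 62.2% of all genes). The length correction gave 8 and 10 (36.4% and 45.5%, against 35% and 35.2%). CAMLG, an ER receptor of the insertion route, rose 1.54-fold, from 24.8 ± 0.259 to 38.3 ± 0.920 FPKM, and EMC6 2.66-fold, from 42.2 ± 3.14 to 112 ± 10.7 FPKM. EMC1 and EMC10, subunits of the same ER membrane complex as EMC6, fell 7.22-fold (16.4 to 2.27 FPKM) and 3.01-fold (30.3 to 10.1 FPKM). Among 21 tested genes that control or take apart SNARE complexes 4 rose and 7 fell in FPKM (median -0.041, all genes 33.3% and 41.3%). TPM gave 1 higher and 17 lower (4.8% and 81.0%, against 14.4% and 62.2% of all genes). The length correction gave 9 and 7 (42.9% and 33.3%, against 35% and 35.2%). NAPA, the alpha-SNAP that recruits the disassembly ATPase, rose from 33.2 to 48.5 FPKM. CPLX1, a complexin, rose from 1.78 to 2.85 FPKM, but not with TPM (0.22, no call). SYTL2, a synaptotagmin-like protein of secretory vesicles, fell 2.22-fold and STXBP5, the syntaxin-binding protein tomosyn, 2.24-fold. With the length correction these 2 were at -0.77 and -0.34 (-1.03 and -0.87 in FPKM), with both calls kept. Of 35 tethering factors, which hold a vesicle before SNAREs pair, 11 rose and 13 fell in FPKM (median 0.077), near the 33.3% and 41.3% of all genes. TPM gave 1 higher and 19 lower (2.9% and 54.3%, against 14.4% and 62.2% of all genes). Quantiles gave 21 and 6 (60% and 17.1%, against 43.8% and 30%). The length correction gave 20 and 9 (57.1% and 25.7%, against 35% and 35.2%). ZW10, of the tether that works with STX18, BNIP1 and USE1, rose 2.20-fold from 8.34 ± 0.466 to 18.3 ± 2.73 FPKM. Its partners in that tether, named after their values were seen, differed from it: NBAS fell from 6.13 ± 0.407 to 3.56 ± 0.416 FPKM (-0.65), and RINT1 rose from 22.1 ± 0.458 to 25.4 ± 1.53 FPKM (0.19), a call lost by TPM (-0.17). VPS51 rose 1.42-fold, a call lost by TPM (0.13). The endosomal tether EEA1 fell 2.53-fold, from a low 2.17 to 0.857 FPKM, and the golgin GCC2 2.38-fold. With the length correction both falls were smaller (-0.22 and -0.49, against -0.77 and -0.97 in FPKM), with both calls kept.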

How the data were processed

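RNA was harvested in Trizol and libraries were made by the protocols of an MGI sequencer, per the labels' protocols. The authors deposited 1 table of FPKM per library, per the file headers, with 2 decimals for 17646 genes. Per the submitters' processing notes the genome was GRCh38.p13. For aligner, counter, annotation and strand handling the entry is: not given in the sources used here. FPKM is not a count, so no count model was used.

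Values were analysed as log2(FPKM + 1), which understates changes of low genes, for genes averaging 1 FPKM or more. All 6 libraries entered 1 limma 3.58.1 fit (R 4.3.3) with a mean-variance trend and no covariate, 2-sided, with Benjamini-Hochberg adjustment. The fit was tested on simulated data. Within groups, libraries shared 0.450% to 0.783% identical values, so none was a copy. Proteins and lengths came from the GENCODE 29 principal transcript with the longest coding sequence (Python 3.11.15), matched by Entrez identifier for 99.6% of tested genes. The length correction was a robust loess curve (span 0.5) per library.

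Members and lists were chosen with earlier results of these data known. Every member is named. Library values were to be given for called members with a difference of at least 0.5 and for any whose called direction turned, and were given for further members. Each companion list is represented by at most 2 higher and 2 lower genes, those of lowest adjusted p, and 1 gene that this rule names is not reported here. SNAP47 was added after its value was seen, to name all members of its short list.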

Additional observations from a re-analysis of the deposited data

How the results depend on the processing

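FPKM keep no read depth, so no counting interval can be given, and 3 libraries a group limit every test. The replicate numbers did not pair the libraries (correlations of deviations -0.077, 0.071 and 0.119 for numbers 1 to 3). A replicate block gave 15 SNARE genes higher and 5 lower, the added call being VAMP7 (-0.166), and 4016 and 4979 of all genes. No filter, a pseudocount of 0.1 and limma without a trend left 15 higher and 4 lower. Lower calls among SNARE genes were 2 with a mean FPKM of at least 5 (29 members tested), 8 with array weights, 7 with the length correction and 18 with TPM, where 6 were higher. Leaving out 1 library at a time gave 13 to 16 higher and 4 to 7 lower, the 7 without siUSP32 library 3. Among genes without a hydrophobic segment the same fits called 37.5% to 43.5% higher and 27.4% to 32.3% lower. Array weights called 45.1% and 34.8% of them, and a mean FPKM of at least 5 gave 48.6% and 25.8%. Such shares move with the setting too, so the member counts are not read alone. Over all genes TPM gave 1723 higher and 7462 lower, and a mean FPKM of at least 5 gave 3068 lower. Where values moved, the cause was not tested.

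Medians moved as follows, in the order SNARE genes, all genes, regulators, insertion, tethers, other SNAREs, other tail-anchored, ER entry during translation, then all genes by protein class (no segment, tail only, N-terminal, other). With TPM they were -0.271, -0.381, -0.355, -0.235, -0.242, -0.028, -0.009, -2.037, -0.27, -0.385, -1.085 and -0.605. With median-ratio scaling they were 0.219, 0.057, 0.075, 0.268, 0.197, 0.428, 0.484, -1.547, 0.18, 0.035, -0.664 and -0.17. With the length correction they were 0.17, 0.011, 0.081, -0.034, 0.244, 0.203, 0.12, -1.532, 0.093, -0.047, -0.717 and -0.107. After quantile normalization the first 7 were 0.191, 0.101, 0.092, -0.005, 0.258, 0.391 and 0.137, and the classes 0.194, 0.059, -0.551 and -0.063. With a mean FPKM of at least 5 all genes were at 0.045, tethers 0.15, other SNAREs 0.329, other tail-anchored 0.388 and the classes 0.15, 0.097, -0.825 and -0.205. With a pseudocount of 0.1 other SNAREs were at 0.342, the ER entry list at -1.913, and the last 2 classes at -0.936 and -0.343. With no filter other SNAREs were at 0.098 and the classes at 0.004, -0.034, -0.149 and -0.121. Array weights gave 0.298 for other SNAREs, 0.314 for other tail-anchored and -0.052 for tail only. Leaving out 1 library gave 0.289 to 0.352 for other SNAREs, -0.093 to -0.052 for tail only and -0.782 to -0.769 for the N-terminal class.

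Single genes changed sign with TPM: STX18 -0.141, BET1 -0.107, BET1L -0.277, SNAP29 -0.237, VAMP8 -0.271, SEC22A -0.319, SEC22B -0.197, SEC22C -0.128, YKT6 -0.147 and TMED3 -0.186. With the length correction STX7 was at 0.509, STX16 0.244, GOSR1 0.28, VTI1B 0.309, STX6 0.232, BET1 -0.039, VAMP8 -0.425, SEC22C -0.119 and TMED3 -0.126. After quantile normalization VAMP8 was at -0.238 and SNAP25 at 0.034. These sign changes cover members and companion genes named by rule, where the gene was called in FPKM or on the other scale. Further members changed sign without a call on either, such as STX3 by quantiles (-0.159 to 0.141).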
